A study of Mus musculus with 8 samples.

Results

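The genes described here are 7 markers of atrial heart muscle, which also forms a sleeve around the large pulmonary veins: Myl7, Myl4, Sln, Nppa, Bmp10, Myh6 and Gja5. They were chosen by symbol and not by their levels, and all 7 were found among the 55385 genes of the count files. RNA came from whole lungs of C57BL/6 mouse fetuses at E18.5, 4 control lungs and 4 lungs after tracheal occlusion (TO), each sequenced as 1 library and called here control 1 to 4 and TO 1 to 4. In TO fetuses the trachea had been tied through the uterine wall earlier in gestation, together with 1 carotid artery and 1 jugular vein. Pregnant mice of this model were anaesthetised for the surgery and later given progesterone against abortion. All lungs shared the same strain and age, and it is not given in the sources used here whether control fetuses had surgery or came from mice so treated. The study's mRNA-seq plots show 3 control and 3 TO lungs whose specimen names match the deposited files of controls 1, 2 and 4 and TO 2, 3 and 4, so tests are given for these 6 libraries first and for all 8 second.

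Heart muscle contracts by myosin motors built from heavy chains with paired light chains, and atrial and ventricular muscle use different chain genes. In rodents, cells of atrial type extend from the left atrium along the pulmonary veins into the lung, so lung RNA can hold atrial transcripts without any heart tissue. Atrial muscle also secretes the hormone encoded by Nppa and, mainly in the right atrium, the growth factor encoded by Bmp10. In bulk RNA fewer cells of a type and less RNA per cell cannot be told apart.

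The upstream sequences of 3 of the genes are shown. Of the 7 genes, Nppa and Bmp10 differed most in level between the lungs, and Myl7 is the gene against which profiles are compared below. RefSeq promoters on GRCm38.p6 were found for 6 of the 7 genes, all but Sln. Each sequence runs 5′ to 3′ over the 250 bases before the gene's start, in lower case, with capitals for any of 4 motifs on either strand: the box TATAAA of core promoters, GATAA as the core bound by factors such as Gata4, AAGTG as the core bound by Nkx2-5 and its relatives, and AGGTGT as the core bound by T-box factors. No 2 of these motifs share letters in the sequences printed. Myl7 is on the minus strand (chr11:5898783-5899032), and Nppa (chr4:148000472-148000721) and Bmp10 (chr6:87428744-87428993) are on the plus strand.
Myl7: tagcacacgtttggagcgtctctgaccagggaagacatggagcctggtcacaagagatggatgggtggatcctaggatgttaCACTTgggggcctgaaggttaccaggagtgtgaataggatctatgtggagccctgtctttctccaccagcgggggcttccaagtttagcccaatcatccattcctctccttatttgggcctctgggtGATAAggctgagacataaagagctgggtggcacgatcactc
Nppa: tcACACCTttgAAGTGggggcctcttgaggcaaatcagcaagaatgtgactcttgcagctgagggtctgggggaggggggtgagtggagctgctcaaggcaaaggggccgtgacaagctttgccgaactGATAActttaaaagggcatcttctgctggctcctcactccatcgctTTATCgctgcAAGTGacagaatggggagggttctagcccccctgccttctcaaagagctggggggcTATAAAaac
Bmp10: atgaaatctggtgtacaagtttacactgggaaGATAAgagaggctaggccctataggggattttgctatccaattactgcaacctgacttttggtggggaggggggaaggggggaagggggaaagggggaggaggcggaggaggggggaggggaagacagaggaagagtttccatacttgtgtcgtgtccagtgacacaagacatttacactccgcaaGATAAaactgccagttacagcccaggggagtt

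The Nppa sequence held all 4 motifs. GATAA was in 3 of the 6 promoters (Myl7, Nppa and Bmp10), against 22.6% of 32851 promoters in the table, and AAGTG was in 5 of the 6, all but Bmp10, against 40.7%. TATAAA and AGGTGT were each in 1 of the 6, that of Nppa, against 12.4% and 11.8% of all promoters. These matches are of letters only, and binding of a factor was not measured.

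Read pairs counted on genes numbered 22822261 to 35002061 in 7 libraries and 270078 in TO 1. Levels are CPM, counts relative to library size as the cpm function of edgeR returns them after TMM scaling over all 8 libraries. In TO 1 a level of 182 CPM rested on 53 read pairs. TO 1 also stood apart in its makeup, since the summed level of 9 thymocyte genes was 464 CPM there and 1.95 to 20.4 CPM in the other libraries, and that of 12 skeletal muscle genes was 2263 CPM there and 29.9 to 291 CPM elsewhere. The tissue label was checked with 8 lung genes, among them Sftpc of alveolar type 2 cells, whose summed level was 6064 CPM in TO 1 and 8015 to 17987 CPM in the other libraries.

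The atrial light chains and the fast cardiac heavy chain were present in every lung, at levels that differed several-fold, with controls 1 and 2 lowest. Myl7 (ENSMUSG00000020469.8), on chromosome 11 from 5896637 to 5898782, encodes the atrial regulatory light chain. It was at 51.2, 45.0, 218 and 248 CPM in controls 1 to 4 and at 182, 197, 249 and 199 CPM in TO 1 to 4. Controls 1 and 2 were thus the low lungs, and controls 3 and 4 lay within the range of the TO lungs.

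Myl4 (ENSMUSG00000061086.12), on chromosome 11 from 104550663 to 104595753, encodes the atrial essential light chain, which fetal skeletal muscle also makes. Its levels were 48.6, 29.6, 212 and 229 CPM in controls 1 to 4 and 227, 157, 247 and 217 CPM in TO 1 to 4. The same 2 controls were low, and the groups overlapped. The log2 ratio of Myl7 to Myl4 reads stayed between -0.31 in TO 1 and 0.60 in control 2, while the level of Myl7 itself varied 5.53-fold.

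Myh6 (ENSMUSG00000040752.16), on chromosome 14 from 54941921 to 54966927, encodes the alpha heavy chain of cardiac myosin, which in the fetal mouse is made in the atria and increasingly in the ventricles. It was at 299, 167, 1897 and 1426 CPM in controls 1 to 4 and at 1370.0, 1031, 1601 and 1382 CPM in TO 1 to 4. Controls 1 and 2 were again below all other lungs, and control 3 was the highest. The log2 ratio of Myh6 to Myl7 reads ran from 1.89 to 3.12. Of the read pairs that align equally well to Myh6 and to its close relative Myh7 none would be counted, since the deposited counts leave out pairs with several alignments.

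Sln (ENSMUSG00000042045.6), on chromosome 9 from 53850164 to 53854560, encodes sarcolipin, a small inhibitor of the calcium pump of the sarcoplasmic reticulum that is made in atrial and in some skeletal muscle. Its levels were 4.47, 2.05, 37.2 and 30.7 CPM in controls 1 to 4 and 41.2, 27.6, 41.1 and 26.8 CPM in TO 1 to 4, the first of these TO values from 12 read pairs. Controls 1 and 2 were low, as for the myosin genes, and their ratio to Myl7 was lower too, at -3.51 and -4.45 on the log2 scale against -3.01 to -2.10 in the other 6 libraries. Atp2a2, which encodes the pump itself and is also expressed outside the heart, was at 342 and 297 CPM in controls 1 and 2 and at 604 to 1088 CPM in the other libraries.

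The secreted products differed far more between lungs than the contractile genes. Nppa (ENSMUSG00000041616.9), on chromosome 4 from 148000722 to 148002079, encodes the precursor of atrial natriuretic peptide. It was at 0.438, 1.59, 77.4 and 59.9 CPM in controls 1 to 4 and at 41.2, 48.7, 110 and 56.6 CPM in TO 1 to 4. In control 1 the value came from 10 read pairs, with a 95% exact binomial interval of 0.210 to 0.805 CPM that covers counting error only. Nppa was therefore nearly absent from controls 1 and 2 and present in the other 6 lungs.

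Bmp10 (ENSMUSG00000030046.6), on chromosome 6 from 87428994 to 87437677, encodes a ligand of the bone morphogenetic protein family that acts on endothelium through the receptor Acvrl1. Its levels were 0.263, 0.0650, 152 and 83.1 CPM in controls 1 to 4 and 44.6, 49.9, 120 and 58.1 CPM in TO 1 to 4. Controls 1 and 2 had 6 and 2 read pairs, with exact intervals of 0.0964 to 0.572 and 0.00788 to 0.235 CPM, where control 3 had 4516 and TO 3 had 2907. Of the 7 genes Bmp10 thus had the widest spread, and its highest level was in a control lung.

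Gja5 (ENSMUSG00000057123.14), on chromosome 3 from 96904693 to 97077416, encodes connexin 40, a gap junction protein of atrial muscle and also of arterial endothelium. Its levels were 46.5, 50.7, 87.0 and 59.1 CPM in controls 1 to 4 and 58.4, 59.3, 80.3 and 48.9 CPM in TO 1 to 4. Over the libraries other than TO 1 it varied 1.87-fold, lowest in control 1 and highest in control 3, and TO 4 lay below control 2. Relative to Myl7 it was higher in controls 1 and 2, with log2 ratios of -0.14 and 0.17 against -2.07 to -1.32 elsewhere. In a list of 6 other arterial endothelium genes, Efnb2, Sox17 and Hey1 being the most abundant, the summed level was 303 to 397 CPM in the 4 controls and 237 to 341 CPM in the 4 TO lungs. Gja4, the partner connexin of arterial endothelium, was at 25.0 to 33.6 CPM in every library.

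**Figure D1:**
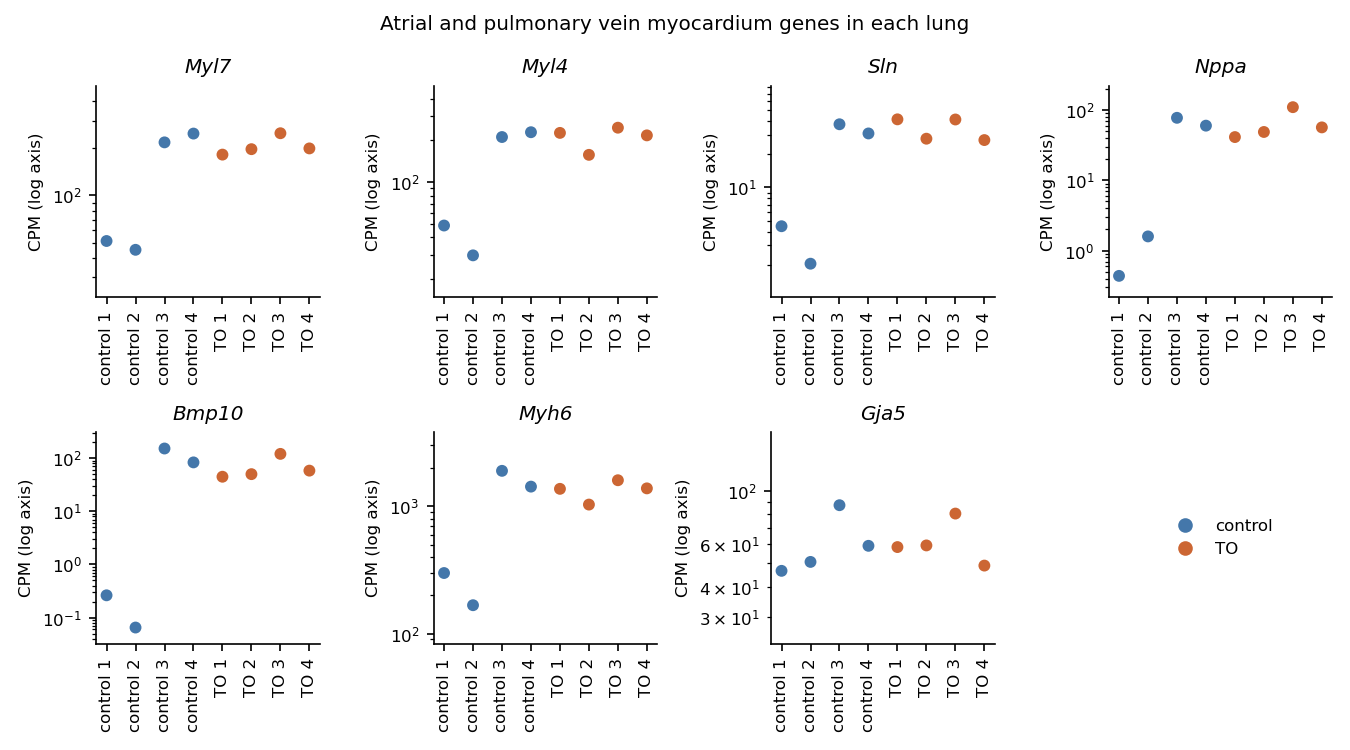
Level of each of the 7 genes in each lung, in CPM on a log axis whose range differs between panels, with control lungs in blue and TO lungs in orange. Except for Gja5, controls 1 and 2 lie below all other lungs, by the widest margin for Nppa and Bmp10, while controls 3 and 4 lie among the TO lungs or, for Bmp10 and Myh6 in control 3, above them.

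Per kilobase of annotated exon, the order of the genes differed between lungs. In control 1 the levels were 86.8 CPM per kilobase for Myl7, 44.5 for Myh6, 10.5 for Myl4, 8.10 for Gja5, 3.39 for Sln, 0.506 for Nppa and 0.0585 for Bmp10. In TO 3 Myl7 was at 422 and Myh6 at 238 CPM per kilobase, and Nppa came next at 127, followed by Myl4 at 53.3, Sln at 31.2, Bmp10 at 26.8 and Gja5 at 14.0. Myl7 and Myh6 were first and second in all 8 libraries. The exon length of Myl4, 4637 bases over all its transcripts, is long for a light chain and lowers its value on this scale. Exons of Myl4, Nppa, Myh6 and Gja5 each overlap 1 gene on the opposite strand, and the counts used do not separate strands.

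To see which kind of heart muscle accompanied these genes, Myl7, Myl4 and Myh6 were each set beside a ventricular counterpart. Irx4 and Hey2, from the ventricular list, were examined too. Myl2 encodes the ventricular regulatory light chain, and it was at 1.53, 5.24, 181 and 153 CPM in controls 1 to 4 and at 779, 1.73, 1.78 and 502 CPM in TO 1 to 4. TO 2 and TO 3 therefore had high levels of Myl7, Nppa and Bmp10 with Myl2 near its level in control 1, while TO 1, TO 4 and controls 3 and 4 had both. Myl3, the ventricular essential light chain, was at 2.23 and 2.63 CPM in controls 1 and 2, at 4.80 and 8.80 CPM in TO 2 and TO 3 and at 98.3 to 522 CPM in the other libraries. Irx4, a transcription factor of the ventricles, was at 0.0438 and 0.0325 CPM in controls 1 and 2 and at 0 and 0.248 CPM in TO 2 and TO 3. In the others it was at 2.63 to 6.87 CPM, the highest from 2 read pairs in TO 1. Myh7 and Hey2, the other ventricular genes listed, did not fall as far. Myh7 was at 72.6 and 99.3 CPM in controls 1 and 2, at 130 and 165 CPM in TO 2 and TO 3 and at 590 to 1693 CPM elsewhere. Hey2 was at 5.38 and 4.98 CPM, at 6.24 and 8.60 CPM and at 10.5 to 24.0 CPM in the same lungs. The highest of these came from 7 read pairs in TO 1.

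The log2 ratio of Myl7 to Myl2 reads ran from -2.09 in TO 1 to 7.11 in TO 3. Its mean was 4.20 ± 4.79 (SD, n = 3) after occlusion and 2.95 ± 2.18 (SD, n = 3) without it, a difference of 1.25 (two-sided exact permutation test, p = 0.7), which turned to -0.055 without TO 2 and -0.20 without TO 3. The ratio of Bmp10 to Myl7 was -1.60 ± 0.488 (SD, n = 3) after occlusion and -6.06 ± 3.97 (SD, n = 3) without it, a difference of 4.46 (two-sided exact permutation test, p = 0.3), with -0.52 in control 3 the highest of all 8 libraries. The ratio of Myh6 to Myh7, the beta heavy chain that prevails in the fetal ventricle and also occurs in slow skeletal muscle, differed by 0.71 (two-sided exact permutation test, p = 0.6). By this test none of the 3 differences stood out from the spread between lungs. After adjustment over the 3 ratios each p was 0.7, and with 3 lungs against 3 no p below 0.1 can be reached. With all 8 libraries, where the smallest possible p is 0.0286, the differences were 0.35, 2.98 and 0.13 (two-sided exact permutation tests, p = 0.914, 0.4 and 0.914).

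**Figure D2:**
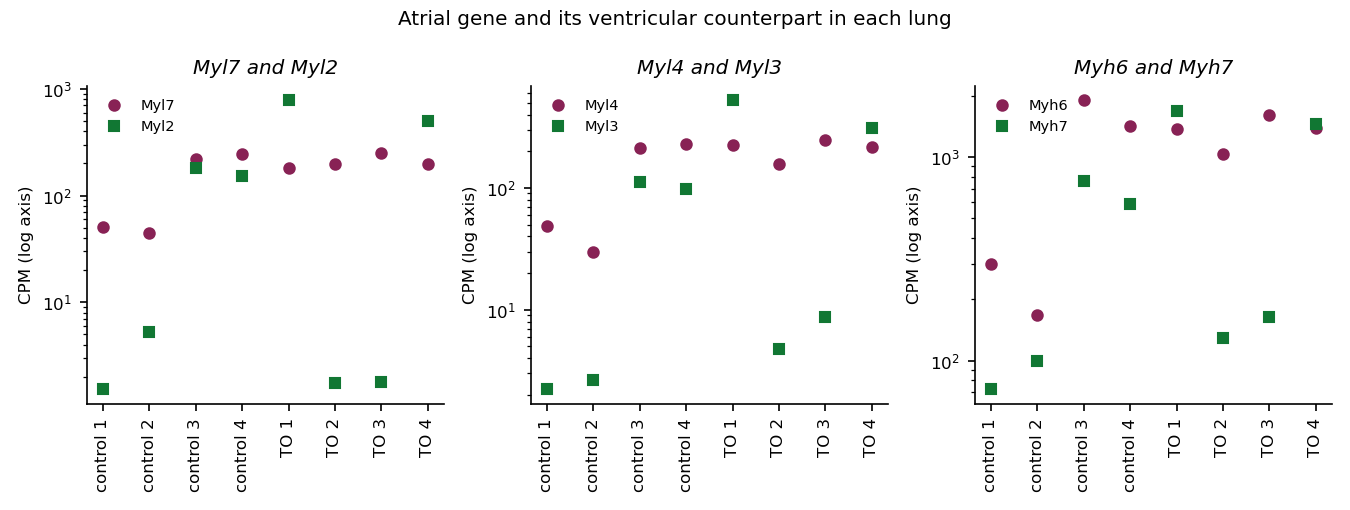
Level in each lung, in CPM on a log axis, of 3 atrial genes (circles: Myl7, Myl4 and Myh6) and of their ventricular counterparts (squares: Myl2, Myl3 and Myh7). In TO 2 and TO 3 Myl7 is at 197 and 249 CPM while Myl2 is at 1.73 and 1.78 CPM, and in TO 1 and TO 4 Myl2 exceeds Myl7.

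In the comparison of TO with control lungs, all 7 genes had a positive log2 fold change in the 6 libraries, with a median of 1.08 against -0.0045 over all genes tested, and none was called. By edgeR's quasi-likelihood test at an adjusted p under 0.1, 0% of the 21859 genes tested were called (5.14% had an unadjusted p under 0.05, and 0 of the 7), and DESeq2 called 0.201% of all genes and 0 of the 7. A log2 fold change above 0 was found for 49.3% of all genes. The log2 fold change was 0.90 for Myl7 (standard error 0.56), 1.01 for Myl4 (0.63), 1.35 for Sln (0.79), 1.78 for Nppa (1.24), 1.44 for Bmp10 (1.49), 1.08 for Myh6 (0.65) and 0.27 for Gja5 (0.18), with adjusted p from 0.907 to 0.938 in edgeR. The mean level of Myl7 was 215 ± 29.4 CPM (SD, n = 3) after occlusion and 115 ± 115 CPM (SD, n = 3) without it, so the spread between the controls was as large as their mean.

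In the 6 libraries this comparison depended on control 4. Leaving it out kept only controls 1 and 2, the low lungs, to set against the TO lungs. In that fit edgeR called 6 of the 7 genes, all but Gja5, among 52 genes called (0.247% of those tested). The 6 genes had log2 fold changes from 2.16 for Myl7 to 8.93 for Bmp10 and adjusted p from 0.00842 to 0.0353. These calls therefore describe the 2 low controls and not the controls as a group. With control 3 among the controls, as in the set of 8 libraries, leaving out control 4 gave 0 calls. With all 8 libraries edgeR called 0% of 22545 genes (2.35% had an unadjusted p under 0.05, and 0 of the 7), DESeq2 called 0.031% and 0 of the 7, and the log2 fold changes, above 0 for all 7 as for 46.8% of all genes, were 0.57 for Myl7, 0.70 for Myl4, 0.82 for Sln, 0.95 for Nppa, 0.28 for Bmp10, 0.51 for Myh6 and 0.033 for Gja5. For none of the 7 genes did the TO and control lungs separate without overlap, in the 6 libraries (10.9% of all genes tested) or in all 8 (2% of all genes).

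**Figure D3:**
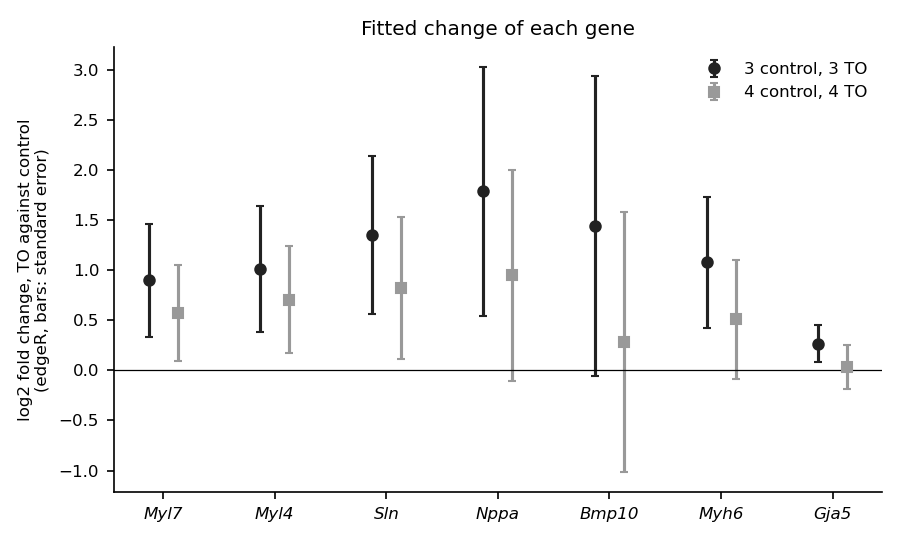
Log2 fold change of each gene, TO against control, from edgeR, with its standard error as a bar, for 3 control and 3 TO lungs (black circles) and for 4 of each (grey squares). The fitted changes are all above 0, each is smaller with 8 libraries, and none had an adjusted p under 0.1.

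Lungs of the same number share a specimen code in the names of the deposited files, and numbers 1 and 4 share one code between them. The sources used here do not say what the code stands for. With the code as a block, an alternative chosen after seeing the data, edgeR called 0 genes in the 6 libraries and 0 in all 8. In these fits 3 and 1 of the 7 genes had an unadjusted p under 0.05, as did 1374 of 21859 and 1152 of 22545 genes tested. Within number 2 the difference in log2 CPM, TO minus control, was 2.13 for Myl7 and 8.44 for Bmp10, and within number 1 it was 1.83 and 7.03. Within number 3 it was 0.19 and -0.34, and within number 4 -0.31 and -0.51. TO lungs were thus higher in Myl7 by a wide margin where the control was control 1 or 2, and not within numbers 3 and 4.

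Other genes of atrial muscle fell into those that followed the 7 genes and those that did not. Of a list of 10 further atrial genes 8 had a positive log2 fold change in the 6 libraries, with a median of 0.35, and 0 were called, and in all 8 libraries 6 did. Kcnj3, which encodes a subunit of the potassium channel opened by acetylcholine in the atrium, was at 1.40 and 1.04 CPM in controls 1 and 2 and at 13.6 to 19.5 CPM in the other libraries. The most abundant members, Nr2f2, Tbx5 and Cacna1d, which lung mesenchyme or other lung cells express as well, varied by factors of 1.32, 1.43 and 1.32 between the lowest and the highest of the 7 deeper libraries. Their log2 fold changes were -0.051, 0.077 and 0.12.

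Transcription factors and a channel of the venous pole, where the veins enter the atria, were low in all lungs with the exception of Tbx3, which lung mesenchyme also expresses. All 7 had a positive log2 fold change in the 6 libraries, with a median of 0.76, and 0 were called. Nkx2-5, a factor needed for the muscle identity of the pulmonary vein sleeve, was at 1.84 and 1.89 CPM in controls 1 and 2, at 7.49 and 13.5 CPM in controls 3 and 4 and at 34.3, 9.66, 11.0 and 22.2 CPM in TO 1 to 4. The lungs highest in Nkx2-5, TO 1 with only 10 read pairs and TO 4 with 781, were also highest in the ventricular gene Myl2, at 779 and 502 CPM. Hcn4, the pacemaker channel, was at 5.30 and 1.98 CPM in controls 1 and 2 and at 6.34 and 13.5 CPM in controls 3 and 4. In TO lungs it was at 11.0 to 27.5 CPM, the highest from 8 read pairs in TO 1. For Nkx2-5 the log2 fold change was 1.32 in the 6 libraries (standard error 0.73, adjusted p = 0.907 from edgeR).

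Among 8 receptors and partners of the secreted products and of sarcolipin, 5 had a positive log2 fold change in the 6 libraries, with a median of 0.12, and 0 were called. Corin, the cardiac protease that activates the natriuretic peptide precursor, was at 5.17 and 4.62 CPM in controls 1 and 2 and at 22.4 to 51.5 CPM elsewhere. The receptors Acvrl1, Bmpr2 and Eng, which endothelium carries and through which the Bmp10 product acts, were at 158 to 292, 168 to 354 and 144 to 215 CPM. In controls 1 and 2, where Bmp10 was nearly absent, Bmpr2 lay at 256 and 201 CPM and Acvrl1 at 223 and 292 CPM, the last of which was the highest of all libraries.

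Genes of heart muscle in general were low in controls 1 and 2 as well. All 15 of a pan-cardiac list had a positive log2 fold change in the 6 libraries, with a median of 1.27, and in all 8, with 1.01, and 0 were called. Their summed level was 604 and 350 CPM in controls 1 and 2, 4301 and 3436 CPM in controls 3 and 4, and 7760, 1826, 2857 and 5580 CPM in TO 1 to 4. Actc1, Tnnt2 and Ttn were the most abundant, and Tnnt2, cardiac troponin T, ran from 64.6 CPM in control 2 up to 1487 CPM in TO 1. Nppb, which encodes the related B-type natriuretic peptide, was at 0.263 and 0.0650 CPM in controls 1 and 2 and at 11.4 to 48.0 CPM in the other libraries, so the same 2 controls were low as for Nppa. For the 5 ventricular genes the median was 1.21, and 0 were called. Their summed level was 81.8 to 1069 CPM in controls and 143 to 3025 CPM in TO lungs.

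Markers of other tissues that could be left on a lung were examined beside these results, and their part in them was not tested. Of 12 skeletal muscle genes 11 were tested, all with a positive log2 fold change in the 6 libraries and a median of 1.26, and 0 were called. The filter on reads favoured this direction for some of them. Myod1 had 8, 4 and 0 read pairs in controls 1, 2 and 4 and 18, 27 and 61 in TO 2 to 4. Pax7 had 0, 0 and 8 against 5, 6 and 31 in the same lungs. Tnnc2, with 6 and 4 read pairs in controls 2 and 4 and 0 in TO lungs, was not tested. In all 8 libraries, with TO 1, the median was 2.30 and 0 were called, but 9 of the 11 had an unadjusted p under 0.05 (2.35% of all genes). Their summed level was 127, 29.9, 150 and 120 CPM in controls 1 to 4, of which Ckm, which heart muscle shares, made up 20.8, 8.72, 130 and 79.2 CPM, and it was 2263, 182, 146 and 291 CPM in TO 1 to 4. Myh3 and Myh8, the embryonic and perinatal heavy chains, were lowest in control 2, at 0.423 and 1.01 CPM, as Myl7 was. They were at 29.7 and 32.9 CPM in control 1, where Myl7 was low, and at 1.17 and 6.78 CPM in control 3 and 7.68 and 9.22 CPM in control 4, where it was high. In TO lungs Myh3 lay at 20.4 to 488 CPM and Myh8 at 21.2 to 852 CPM. Of 7 airway cartilage genes, of which Col9a2, Col2a1 and Col11a2 were the most abundant, 6 were tested and 3 had a positive log2 fold change, with a median of 0.062. Their summed level was 54.4 and 37.1 CPM in controls 1 and 2 and 29.8 and 74.5 CPM in controls 3 and 4, and 52.7 to 144 CPM in TO lungs. Of 9 thymocyte genes, led by Rag1, Lck and Cd3g, 4 were tested, all with a positive log2 fold change and a median of 1.63, and of 8 lung genes, Sftpc, Sftpb and Ager being the most abundant, 5 had one, with a median of 0.12, and 0 genes of these 3 lists were called. In all 8 libraries 7 thymocyte genes were tested, with a median of 5.31, and 0 were called. Of these 6 had an unadjusted p under 0.05 in edgeR, as did 2.35% of all genes. Cd8b1 had 8, 11 and 41 read pairs in TO 1 to 3 and at most 1 in any control. It thus passed the filter on reads through TO lungs alone, which fixed the direction of its change. In TO 1 Rag1 rested on 47 read pairs and Rag2 on 2. The arterial list had a median of -0.053, with 2 of 6 genes above 0 and 0 called.

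The genes whose profile over the lungs was most like that of Myl7 were found by the root mean square difference of centred log2 CPM over the 7 libraries other than TO 1, among 15879 genes with a mean of at least 1 CPM. The median difference of all genes was 1.04. Myl4 ranked 3rd at 0.22 and Myh6 18th at 0.35, whereas Sln was at 0.60, Gja5 at 0.84, Nppa at 1.89 and Bmp10 at 2.93. Profiles were not scaled, so a gene that is low in the same lungs by a larger factor also lies far from Myl7. Nearest of all was Pam, at 0.19, which encodes the enzyme that amidates peptide hormones and is the main membrane protein of atrial secretory granules. Its levels were 188, 132, 795 and 685 CPM in controls 1 to 4 and 524, 670 and 690.0 CPM in TO 2 to 4. The other 9 were Abcc8, Lmntd1, 4933433G19Rik, Foxc1, Slc25a34, Npy1r, Fgf12, Gm19531 and Mybphl, at 0.22 to 0.27. Abcc8 encodes the regulatory subunit of a potassium channel closed by ATP, and Mybphl a myosin-binding protein of the atria. Myl2 lay at 3.08, farther from Myl7 than any of the 7 genes. The pan-cardiac list ran from 0.38 for Smyd1 to 2.25 for Nppb, with Tnni3 at 0.40 and Ryr2 at 0.46. Nearness to Myl7 was thus not limited to atrial genes.

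**Figure D4:**
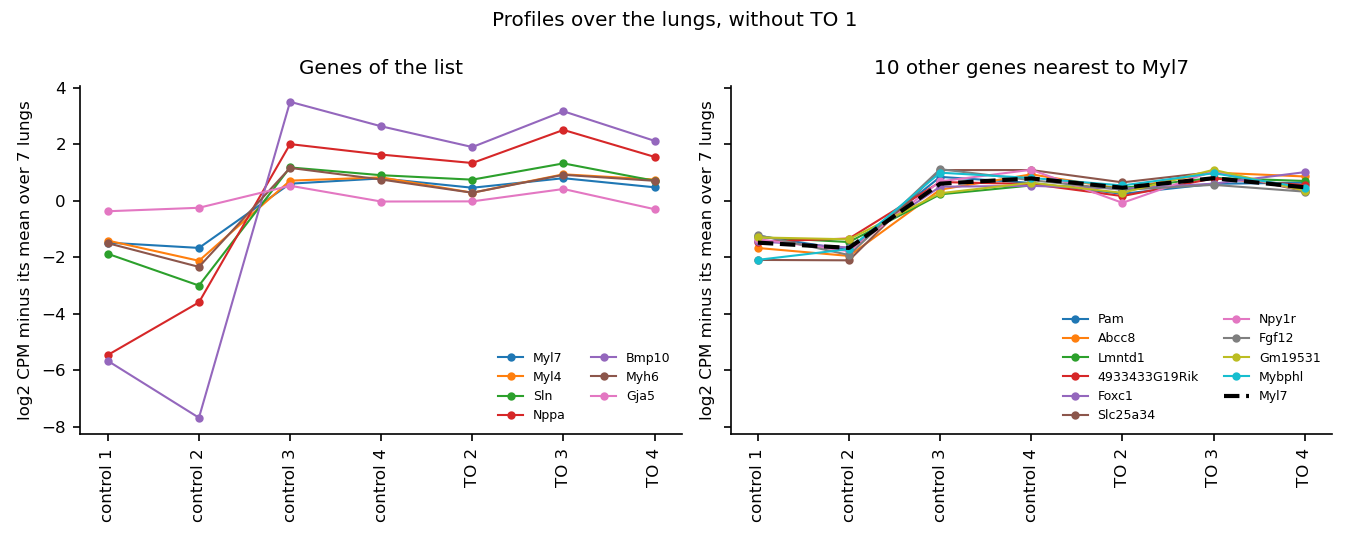
Log2 CPM of each gene minus its mean over 7 lungs, without TO 1, for the 7 genes (left) and for the 10 other genes nearest to Myl7 (right, Myl7 dashed). Lines join values of 1 gene and imply no order of the lungs. Controls 1 and 2 are lowest for 6 of the 7 genes, with the deepest drop for Bmp10, and the right panel shows 10 genes that are low in the same 2 controls.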

How the data were processed

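Whole-lung RNA of 4 control and 4 TO fetuses was sequenced from NexteraXT libraries by the authors, who aligned the read pairs to GRCm38 with STAR. They deposited 1 file of unnormalised counts for each library, in which a count is a read pair assigned to a gene, and the version of STAR and the annotation are not given in the sources used here. Of 55385 gene IDs, 55144 matched GENCODE M21 without the version, and symbols, coordinates and exon lengths were taken from it. Promoters came from RefSeq on GRCm38.p6.

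Column 2 of the counts, both strands together, was used. Of the counts given by strand, 49.87% to 50.11% were on 1 strand in each library, so the libraries do not hold strand information. Counts of 1 strand therefore cannot resolve overlaps of genes on opposite strands. A gene entered the quasi-likelihood test of edgeR 4.0.16 (R 4.3.3, TMM scaling) if 3 libraries held 5 or more of its reads. The p-values were adjusted by Benjamini and Hochberg across every gene tested, with the threshold of 0.1 that the authors used. DESeq2 1.42.0, the tool of the authors, was an alternative. Its adjusted p of Bmp10 in the 6 libraries was not given by the tool. Standard errors were derived from the quasi-likelihood F statistic. Log2 CPM had a prior count of 2 and log2 ratios of reads a pseudocount of 0.5. No 2 libraries of similar depth agreed within counting error. Nothing says whether the lungs came from separate litters, so p-values measure the spread between these lungs.

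The 7 genes, the 10 other lists and the ratios were chosen with earlier results of these data known. Named genes are the 7, the 3 most abundant tested genes of each list and the 10 nearest to Myl7. Others named, such as Kcnj3, Corin, Irx4, Nppb, Gja4 and Eng, were picked after their values were seen. The values of 1 listed gene are not reported here. Alternatives were DESeq2, another scaling, other filters, counts of 1 strand, a block by number, another pseudocount and each library left out in turn.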

Additional observations from a re-analysis of the deposited data

Results flagged for a closer look

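In 54 groups of 4 libraries, 2 held 1 library farther from the rest than a criterion for single outlying values allows, which chance does in about 1 of 20 groups. The log2 ratio of Myl7 to Myl4 reads was 0.605 in control 2, above the other controls at 0.042 to 0.11. The summed level of the skeletal muscle list, on the log2 scale, was 4.90 in control 2, where it was 6.91 to 7.23 in the other controls.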

How the results depend on the processing

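In the 6 libraries, where edgeR called 0 genes, DESeq2 called 44 and a test of every gene with a read called 40. A block by replicate number called 219 (1% of those tested), among them 2 of the 7 genes, Myl4 and Myh6. With this block 6 of the 7 had an unadjusted p under 0.05, as did 1293 of the 21859 genes tested. Under the same block the log2 fold change of Gja5 was -0.017. Leaving out each of the 6 libraries in turn gave 0 to 144 genes called, the most without TO 4 (0.692% of those tested). It gave 0 to 6 of the 7 genes, the most without control 4, which left only the low controls 1 and 2. In that fit 0.247% of all genes tested were called. In all 8 libraries DESeq2 called 7 genes and the block by replicate number 3, with 0 of the 7 genes in both. With that block 5 of the 7 had an unadjusted p under 0.05, as did 993 of the 22545 genes tested. Leaving out each of the 8 in turn gave 0 calls in edgeR, and in these fits 5 to 7 of the 7 genes had a positive log2 fold change. The difference of the log2 ratio of Myl7 to Myl2 between the groups ran from -0.20 to 4.02 as each of the 6 libraries was left out, and was below 0 without TO 2 (-0.055) and without TO 3. The causes were not tested. The shared numbers were not taken as pairs. The correlation over genes of same-numbered lungs, in their deviations from the group means, was 0.052, 0.13, 0.16 and 0.071 for numbers 1 to 4. It was above 0.1, as was asked of pairs, for numbers 2 and 3 only. Control 1 correlated better with a TO lung of another number, at 0.097. Controls 2 to 4 correlated best with the TO lung of their own number, against at most 0.0044, -0.016 and 0.022 with the others. The block changed no other call of the 7 genes. In the 6 libraries it rests on numbers 2 and 4, since only these hold both groups, and it treats numbers 1 and 4 as separate although they share a specimen code. With the code as the block, chosen after seeing the data, 0 genes were called in either set of libraries. Other scaling, counts of 1 strand and 5 reads in every library gave 0 calls in both sets of libraries, as did a test of every gene with a read in all 8, and Bmp10 was not tested where 5 reads in every library were asked for. Depth limits TO 1, where the 7 genes rest on 12 to 399 read pairs.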
